A study of Rattus norvegicus with 14 samples.

Results

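Camkk2 and the 100 kb on each side of it were described region by region in the Methyl-Seq data of rat dorsal hippocampus. Members were all deposited regions overlapping chr12:34807317-35038479 of the rat assembly RN4, which holds the gene as the study draws it (chr12:34907317-34938479, 31163 bp) and 100000 bp of flank on either side. There were 53 such regions among 310070 in the whole table, 14 in the gene, 23 in the flank at lower coordinates and 16 in the flank at higher coordinates. A single region, chr12:34936037-34936702, lay over the amplicon that the study examined by bisulfite sequencing, and is called the amplicon region here. The study draws the transcription start at the lower coordinate, so the amplicon region lay toward the 3′ end of the gene, 28720 bp from its start and 1777 bp from its end.

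Methyl-Seq counts DNA fragments captured by a methyl-CpG binding protein, so a region gives more tags when more of its DNA is methylated or when it holds more CpG sites. Male Wistar rats made up all 3 groups, each rat gave 1 library, and tissue was taken after 84 days. CTRL animals (n = 5) were sham-treated with saline after methyl scopolamine, on a standard diet. PILO (n = 4) received methyl scopolamine and then pilocarpine at 340 mg/kg, a muscarinic agonist that induced status epilepticus, which was ended with diazepam, and ate a standard diet. PILO+KD (n = 5) received the same injections and was fed a ketogenic diet, high in fat and low in carbohydrate, after status epilepticus. The dorsal hippocampus is a mixture of neurons and glia, and a change of cell composition cannot be told apart from a change of methylation within cells. The control group differed from both others in pilocarpine, seizures, diazepam and glucose injections together. Rats without early status epilepticus received a further, smaller dose of pilocarpine. The study also reports EEG from implanted electrodes in some PILO and some PILO+KD rats. The labels do not tell which rats these were.

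CaMKK2 is the beta isoform of Ca2+/calmodulin-dependent protein kinase kinase. When calcium enters a neuron and binds calmodulin, the kinase is activated and phosphorylates CaMKI, CaMKIV and AMPK, through which it acts on transcription, on dendritic growth and on the cellular response to low energy. It is abundant in brain and has a known role in hippocampal memory. Methylation at a promoter is usually associated with silencing, whereas methylation within the body of a gene is common in genes that are expressed. In RefSeq's annotation of the later assembly GRCr8, the protein-coding genes nearest to Camkk2 are Rnf34 (a RING-type ubiquitin ligase) and Anapc5 (a subunit of the anaphase-promoting complex) on the side of its start as drawn, and P2rx4 and P2rx7 (ATP-gated ion channels) on the other side. The model of P2rx4 overlaps that of Camkk2 there, and the Camkk2 model is longer than the gene as drawn in the study. Coordinates of that assembly were not used, so exons, introns and CpG islands are not assigned to the regions below.

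Libraries held between 6972700 and 12391666 tags (median 9400500), of which 1099 to 2124 fell in the Camkk2 window. Values are tags per 1000000 after TMM scaling (CPM), and a single tag was worth 0.0822 to 0.154 CPM. Regions with fewer than 129 tags summed over all animals were not tested, following the study's filter at the 50th centile, which left 32 of the 53 members (60.4%, beside 54.1% in the rest of chromosome 12) and 155092 regions in all. The members were 9 in the gene, 12 in the lower and 11 in the higher flank. The 21 members below the filter held 11 to 128 tags each over all 14 animals, 12 of them had no tag in at least 1 animal, and they are described by their tags alone. Libraries came from 4 flow cells according to the prefix of their labels, read here as a flow cell, the largest of which held 3 CTRL, 3 PILO and 2 PILO+KD libraries.

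The deposited regions of Camkk2 formed a steep profile along the gene. Tag density, the CPM of a region divided by its length, rose from 1.51 CPM per kb shortly after the start to between 13.6 and 13.9 CPM per kb in 3 regions of the distal part of the gene, and fell to 1.53 CPM per kb in the amplicon region (means of CTRL). The median density of tested regions was 4.41 CPM per kb over the whole table and 3.87 CPM per kb over the tested members. The 3 dense regions were chr12:34925188-34925902 (13.6 ± 3.05 CPM per kb, SD, n = 5), chr12:34929924-34930837 (13.8 ± 4.6) and chr12:34934627-34935831 (13.9 ± 1.66). They covered 2834 bp and held 56.5% to 70.0% of the tags counted in the 14 regions of the gene in each animal (median 64.6%). Those 14 regions covered 9370 bp, and tags elsewhere in the gene were not counted.

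**Figure D1:**
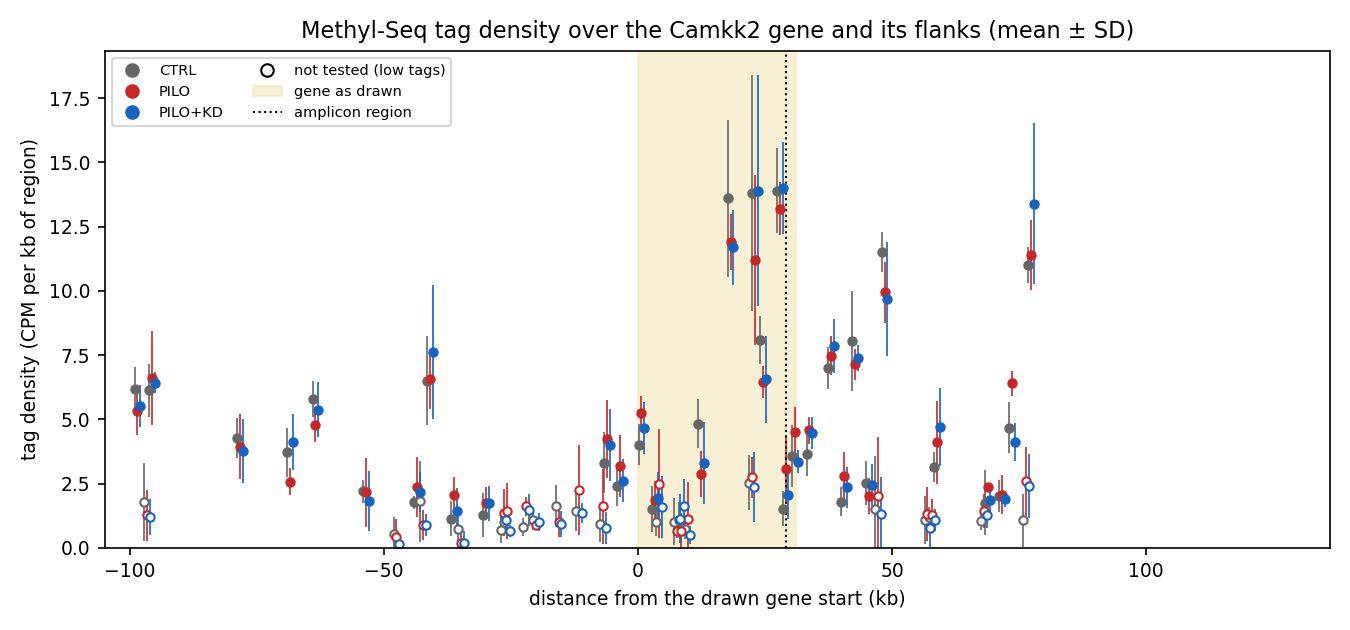
Tag density (CPM per kb of region, mean ± SD over animals) of the 53 regions by the distance of their midpoint from the drawn gene start in kb. CTRL is grey, PILO red and PILO+KD blue, with the groups shifted slightly sideways. Open circles were below the filter, the shaded band is the gene as drawn and the dotted line marks the amplicon region. The 3 densest regions lie in the distal part of the gene, and only the last of them is directly before the amplicon region. The amplicon region is among the sparsest of the tested regions, and no region lies in the last 53485 bp of the window.

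The amplicon region was next to the densest of them. A gap of 205 bp separated it from chr12:34934627-34935831, whose density in CTRL was 9.04 times higher. The density of the amplicon region stood at percentile 3.83 of all tested regions and that of its neighbour at percentile 92.7. The region on the other side, chr12:34937846-34938646, began after a gap of 1143 bp, ran past the drawn end of the gene and held 3.57 ± 1.22 CPM per kb in CTRL (percentile 40.1).

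Around the drawn start, chr12:34907122-34908820 began 195 bp before the gene and was its longest region (1699 bp), with 4.02 ± 0.815 CPM per kb in CTRL. Beyond it lay a sparse stretch. The region chr12:34910338-34911063 held 1.51 ± 0.907 CPM per kb, and the 4 regions that followed, between 3981 and 9557 bp from the start, were all below the filter with 33 to 56 tags each over the 14 animals. Density rose again at chr12:34919412-34920097 (4.83 ± 0.951 CPM per kb). Between the dense regions, chr12:34931720-34932048 held 8.1 ± 0.932 CPM per kb, and chr12:34929466-34929878 was below the filter with 128 tags.

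The flanks were sparser. Tested regions had a median of 3.52 CPM per kb in the lower flank and 3.65 in the higher flank, beside 4.83 in the gene. The sparsest member of all was chr12:34859549-34859950 in the lower flank, with 0.536 ± 0.665 CPM per kb and 0 to 6 tags per animal in CTRL. In the higher flank the last region ended at 34984994, and the next one on the chromosome began 85896 bp further on, a gap reached by 0.162% of those between regions of chromosome 12 (median 1911 bp). Because the authors called regions where a pair of animals differed, an empty stretch says only that no pair was called different there.

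Summed over all regions of the gene, the means of the groups differed by less than the SD within any of them. It held 59.0 ± 9.3 CPM in CTRL (SD, n = 5), 57.3 ± 3.21 in PILO (n = 4) and 58.1 ± 8.88 in PILO+KD (n = 5). The lower flank held 50.4 ± 5.55, 51.3 ± 6.73 and 51.0 ± 4.31 CPM, and the higher flank 56.3 ± 1.92, 59.1 ± 1.36 and 59.4 ± 5.45 CPM. These sums were not tested. Between animals of a group, the coefficient of variation of a tested member had a median of 23.1% in CTRL, 24.9% in PILO and 29.3% in PILO+KD, and reached 72.2%, 61.5% and 64.2%.

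The first comparison asked which regions differed in chronic epilepsy. Between PILO and CTRL, the amplicon region was higher and a region in the middle of the gene was lower by the smallest p values of the window, and neither passed the cut-off. The study applied its threshold, an unadjusted p below 0.01, to edgeR's negative binomial model with Bayesian shrinkage. Here the quasi-likelihood test of edgeR was used at that threshold. It called 0 of the 32 tested members, where 1.19% of all tested regions were called. At an unadjusted p below 0.05 there were 2 members, both in the gene (5.13% of all tested regions), and DESeq2 gave the same counts of 0 and 2. Adjusted p values (Benjamini-Hochberg over all 155092 regions) ranged from 0.866 to 1. The log2 fold change was above 0 in 19 of 32 members (50.6% of all tested regions), 4 of 9 in the gene, 8 of 12 in the lower and 7 of 11 in the higher flank, and its median was 0.07 in the window beside 0.00 over all tested regions.

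In the amplicon region, CTRL 1 to 5 had 0.894, 1.79, 1.03, 0.633 and 0.763 CPM. PILO 2 to 5 had 0.888, 2.38, 2.93 and 2.02 CPM. PILO+KD 1 to 4 had 1.87, 1.16, 2.15 and 0.774 CPM, and the animal labelled 211 had 0.848 CPM. In words, 3 of 4 PILO animals were above every CTRL animal, PILO 2 lay within the CTRL range, and the PILO+KD animals were spread over both ranges. These values rested on 5 to 16 tags in CTRL, 6 to 29 in PILO and 7 to 19 in PILO+KD. Counting error alone gave a 95% Poisson interval of 1.62 to 11.7 tags around the lowest value of 5 and of 19.4 to 41.6 around the highest value of 29.

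The mean of the amplicon region was 1.02 ± 0.454 CPM in CTRL and 2.05 ± 0.863 CPM in PILO. PILO was higher by a log2 fold change of 1.00 (SE 0.40, 95% interval 0.18 to 1.82), with p = 0.0163 (adjusted p = 0.866) in edgeR's quasi-likelihood test and p = 0.0794 in the exact two-sided permutation test of log2 CPM. The former was the smallest p of the window in this comparison, and the fold change was the largest. An exact test over 126 splits can give no p under 0.00794. The study chose the locus with Methyl-Seq results of these libraries in hand, so its direction is not independent evidence. Within the largest flow cell, with 3 CTRL and 3 PILO libraries, the log2 fold change was 0.84 and did not pass the cut-off. The call turned on single animals, since edgeR's test passed the cut-off without CTRL 2 (log2 fold change 1.30) and without PILO 2 (1.23).

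Relative to its dense neighbour, which shares the library and needs no scaling, the amplicon region showed the same order of groups. This ratio reuses the tags of the amplicon region over a nearly level neighbour, so the order is not separate evidence. The amplicon region held 6.01 ± 2.2 tags per 100 tags of chr12:34934627-34935831 in CTRL, 13 ± 5.5 in PILO and 7.89 ± 3.06 in PILO+KD. The ratio ran from 4.35 to 9.82 in CTRL, from 5.26 to 17.3 in PILO and from 5.44 to 11.2 in PILO+KD, so the groups overlapped. It was not tested. The neighbour itself had nearly equal levels, with 18.7, 18.2, 17.5, 14.5 and 14.6 CPM in CTRL 1 to 5 and 16.9, 14.4, 17.0 and 15.5 CPM in PILO 2 to 5. Its log2 fold change in PILO was -0.08 (95% interval -0.38 to 0.23). This interval was the narrower of both. The neighbour held 110 to 188 tags per animal, and its coefficient of variation was 11.9% in CTRL and 7.69% in PILO. In the amplicon region it was 44.4% and 42%. The parts of depth and spread between animals in the interval were not tested.

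**Figure D2:**
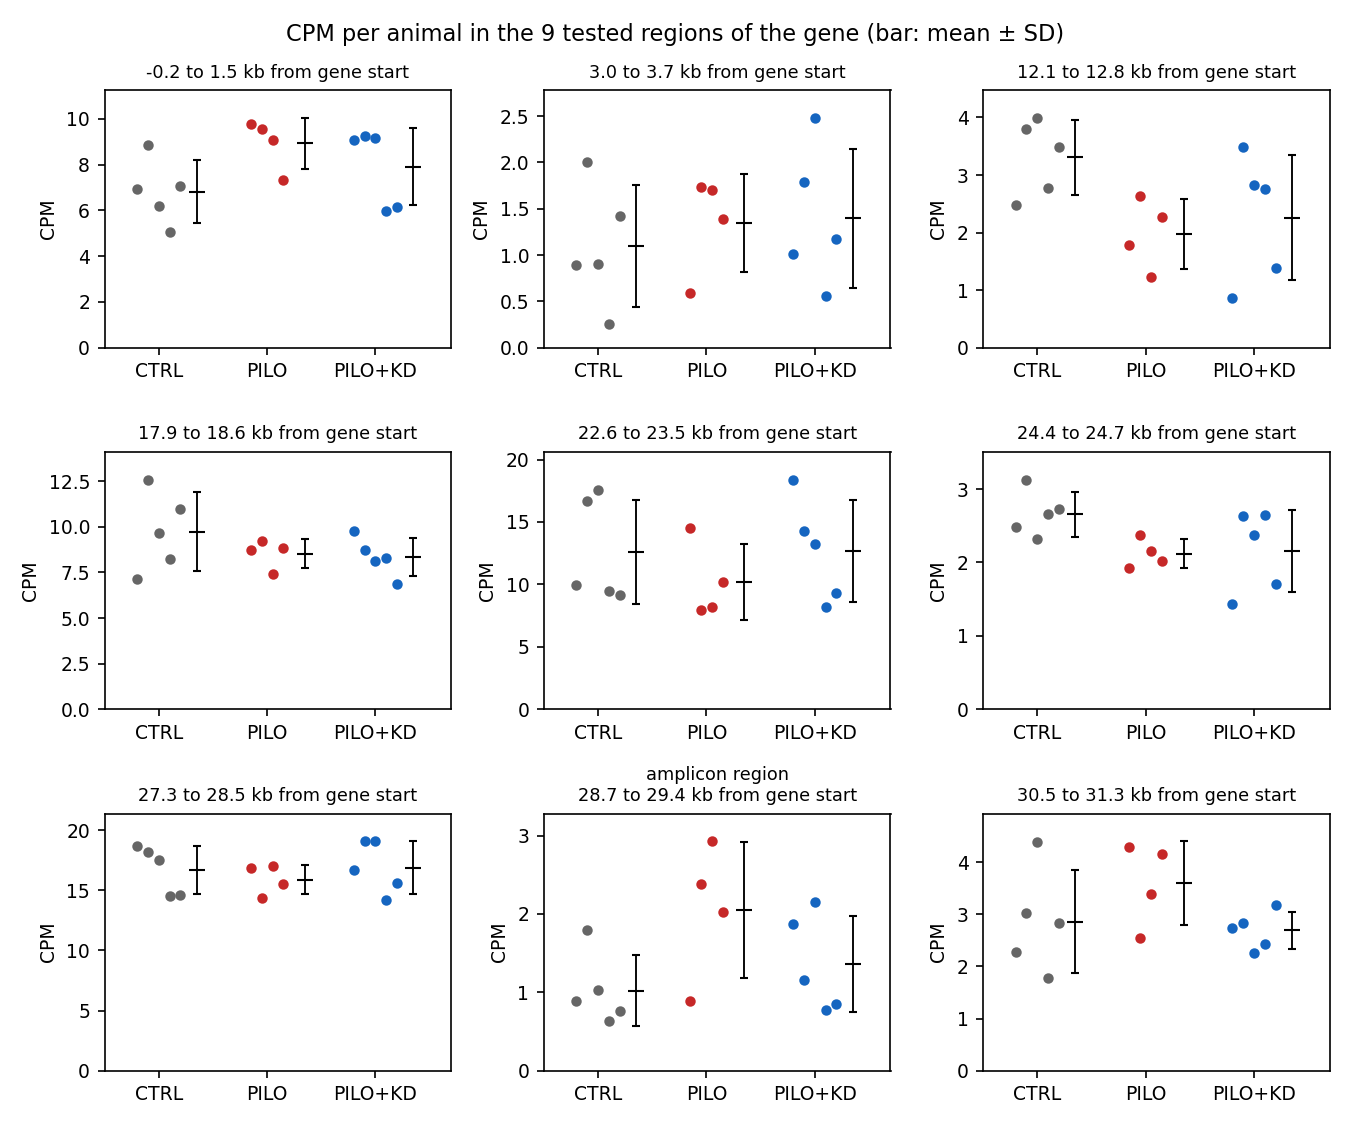
CPM after TMM scaling of each animal (points) in the 9 tested regions of the gene, with the mean ± SD of each group beside the points; each panel has its own axis from 0 and is titled by its distance from the drawn start in kb. In the amplicon region 3 of 4 PILO animals lie above all CTRL animals, the region 12.1 to 12.8 kb from the start is lower in PILO than in CTRL with 1 PILO animal in the CTRL range, and the dense region directly before the amplicon region shows overlapping groups.

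The lower of the pair was chr12:34919412-34920097, in the middle of the gene. CTRL 1 to 5 had 2.48, 3.8, 3.99, 2.78 and 3.49 CPM, and PILO 2 to 5 had 1.78, 2.63, 1.23 and 2.27 CPM. All PILO animals except PILO 3 were below the lowest CTRL animal. This was a log2 fold change of -0.69 (SE 0.32, 95% interval -1.34 to -0.04), with p = 0.0352 (adjusted p = 0.943) by edgeR and p = 0.0238 by the exact permutation test. It rested on 22 to 34 tags per animal in CTRL and 8 to 32 in PILO.

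The region over the drawn start, chr12:34907122-34908820, had 6.95, 8.84, 6.18, 5.06 and 7.09 CPM in CTRL 1 to 5 and 9.77, 9.54, 9.09 and 7.31 CPM in PILO 2 to 5. Here 3 of 4 PILO animals were above all CTRL animals, and PILO 5 was below CTRL 2. Its log2 fold change of 0.38 (95% interval -0.01 to 0.77) had p = 0.0527 (adjusted p = 0.979) by edgeR and p = 0.0397 by the exact permutation test.

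The other tested regions of the gene differed by less. The sparse region chr12:34910338-34911063 had a log2 fold change of 0.31 and the widest interval of the gene (-0.63 to 1.25), with 2 to 21 tags per animal in both groups. The dense regions chr12:34925188-34925902 and chr12:34929924-34930837 gave -0.18 (95% interval -0.55 to 0.18) and -0.31 (-0.78 to 0.17). For chr12:34931720-34932048 the log2 fold change was -0.32 (-0.86 to 0.23), with 2.48, 3.13, 2.32, 2.66 and 2.73 CPM in CTRL 1 to 5 and 1.92, 2.38, 2.16 and 2.02 CPM in PILO 2 to 5. Its exact permutation p was 0.0238, whereas edgeR's quasi-likelihood test, which shares the spread between regions, gave p = 0.24 (adjusted p = 1). The last region of the gene, chr12:34937846-34938646, gave 0.32 (-0.21 to 0.84).

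Signs thus came in runs along the gene. The drawn start, the sparse region after it and both regions at the distal end had log2 fold changes above 0, and the 5 regions between them had values below 0. None of these 9 passed the cut-off. Of all 32 intervals in this comparison, 21 lay wholly within a log2 fold change of 1 in either direction, and the others reached 1, so a change of that size was not excluded by the interval for 11 members, the amplicon region among them.

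In the flanks, a single member had groups that did not overlap between PILO and CTRL (2.01% of all tested regions had none). It was chr12:34980662-34981112 in the higher flank, with 2.58, 1.57, 1.8, 2.53 and 2.07 CPM in CTRL 1 to 5 and 3.11, 2.79, 2.62 and 3.03 CPM in PILO 2 to 5. The highest CTRL animal was just below the lowest PILO animal. The difference was 0.45 on the log2 scale (95% interval -0.09 to 0.98), with p = 0.0985 (adjusted p = 1) by edgeR and p = 0.0317 by the exact permutation test.

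**Figure D3:**
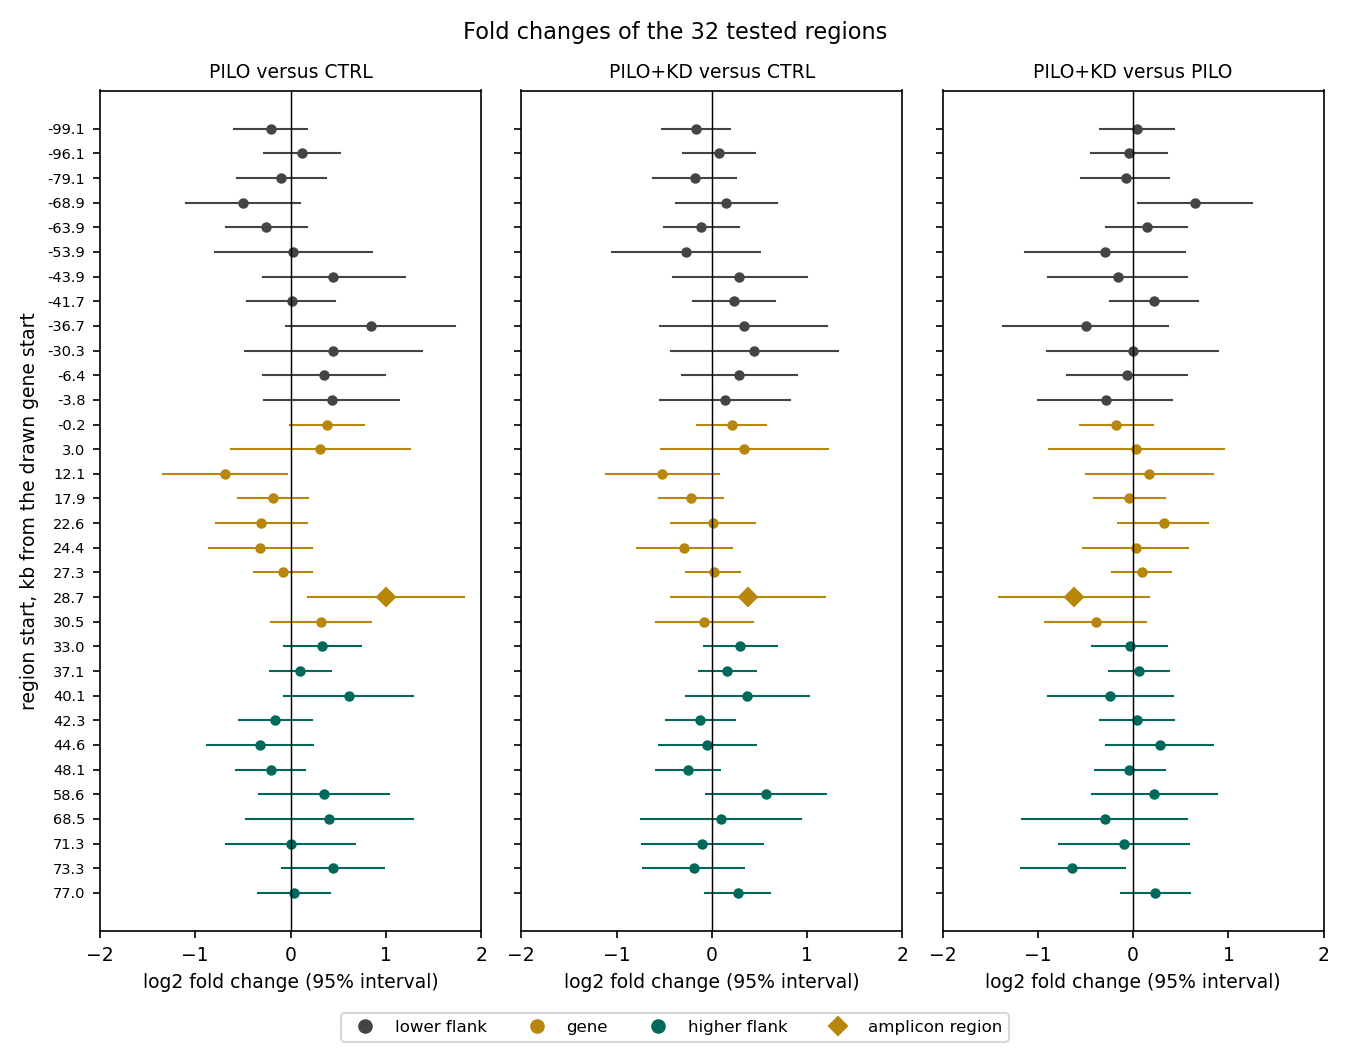
Log2 fold changes with 95% intervals from edgeR's quasi-likelihood fit for the 32 tested regions, ordered by the distance of their start from the drawn gene start in kb, in PILO versus CTRL, PILO+KD versus CTRL and PILO+KD versus PILO; grey is the lower flank, ochre the gene, green the higher flank and the diamond the amplicon region. Intervals of 2 regions exclude 0 in PILO versus CTRL, both in the gene, none do in PILO+KD versus CTRL, and 2 do in PILO+KD versus PILO, both in the flanks.

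The second comparison set the epileptic animals on the ketogenic diet against the same 5 CTRL animals, so that it shares its controls with the first. No member passed the cut-off in PILO+KD versus CTRL. By edgeR's quasi-likelihood test 0 of 32 were called (0.92% of all tested regions), 0 had an unadjusted p below 0.05 (4.22%), and DESeq2 gave 0 at both thresholds. The groups overlapped in all 32 members, whereas 0.727% of all tested regions had groups that did not. The log2 fold change was above 0 in 19 of 32 members (51.4% of all tested regions), and its median was 0.09 in the window and 0.01 over all tested regions.

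The amplicon region had a mean of 1.36 ± 0.617 CPM in PILO+KD, between those of the other groups. Its log2 fold change against CTRL was 0.38 (SE 0.40, 95% interval -0.43 to 1.19), with p = 0.335 (adjusted p = 1) by edgeR and an exact permutation p of 0.31. PILO+KD 1 and 3 were above all CTRL animals and the others were within the CTRL range.

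The region in the middle of the gene, chr12:34919412-34920097, had 0.863, 3.48, 2.82 and 2.76 CPM in PILO+KD 1 to 4 and 1.38 CPM in the animal labelled 211. Of these 5 animals, 2 were below all CTRL animals and the others were within the CTRL range. Against CTRL the log2 fold change was -0.52 (95% interval -1.11 to 0.07), with p = 0.0795 (adjusted p = 1) by edgeR and p = 0.127 by the exact permutation test. It was the lower member with the smallest p in this comparison. The region over the drawn start had 9.06, 9.27, 9.15 and 5.97 CPM in PILO+KD 1 to 4 and 6.15 CPM in the animal labelled 211, and gave 0.21 (-0.16 to 0.57). Its PILO+KD animals fell apart into 3 above and 2 within the CTRL range.

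The higher member with the smallest p was in the flank. It was chr12:34965900-34966352, with 1.79, 1.45, 1.55, 1.27 and 1.09 CPM in CTRL 1 to 5 and 2.01, 2, 1.47, 1.88 and 3.29 CPM in PILO+KD, the last being the animal labelled 211. PILO+KD was higher by 0.57 on the log2 scale (95% interval -0.06 to 1.20), with p = 0.0706 (adjusted p = 1) by edgeR and an exact permutation p of 0.0317. All PILO+KD animals except PILO+KD 3 were above the highest CTRL animal. In the rest of the gene, log2 fold changes lay between -0.29 at chr12:34931720-34932048 and 0.34 at chr12:34910338-34911063. The dense regions chr12:34929924-34930837 and chr12:34934627-34935831 gave 0.01 (-0.43 to 0.45) and 0.02 (-0.27 to 0.30).

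With PILO and PILO+KD averaged and set against CTRL, 0 of 32 members were called by edgeR's quasi-likelihood test (1.35% of all tested regions), and 1 had an unadjusted p below 0.05 (5.65%). DESeq2 gave the same counts. That member was chr12:34919412-34920097, with a log2 fold change of -0.60 (95% interval -1.13 to -0.08), p = 0.0228 (adjusted p = 0.812) by edgeR and p = 0.035 by the exact permutation test. With the flow cell as a covariate it gave -0.74, and without PILO+KD 2 it gave -0.71, both past the cut-off in edgeR. The amplicon region gave 0.69 (-0.02 to 1.41), with p = 0.0525 (adjusted p = 0.892) by edgeR and p = 0.106 by the exact permutation test.

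The third comparison asked what differed with the diet among animals that had status epilepticus. Between PILO+KD and PILO, 0 of 32 members were called (0.351% of all tested regions) and 2 had an unadjusted p below 0.05 (2.3%) by edgeR's quasi-likelihood test, both in the flanks, and DESeq2 gave the same counts. The log2 fold change was above 0 in 14 of 32 members (51% of all tested regions).

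The amplicon region was lower in PILO+KD than in PILO by a log2 fold change of -0.62 that did not pass the test (SE 0.39, 95% interval -1.41 to 0.17, p = 0.116 and adjusted p = 1 in edgeR's quasi-likelihood test, exact permutation p = 0.238). PILO+KD 1 to 3 lay within the PILO range, and PILO+KD 4 and the animal labelled 211 were below every PILO animal. Next to it, chr12:34937846-34938646 had 4.29, 2.55, 3.39 and 4.16 CPM in PILO 2 to 5, and 2.73, 2.84, 2.26 and 2.43 CPM in PILO+KD 1 to 4 with 3.18 CPM in the animal labelled 211. Its log2 fold change was -0.39 (-0.92 to 0.13). In CTRL this region ran from 1.77 to 4.38 CPM, which takes in all animals of both other groups. The other 7 tested regions of the gene had log2 fold changes between -0.18 and 0.32.

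The lower member with the smallest p was chr12:34980662-34981112, the flank region whose groups did not overlap between PILO and CTRL. PILO+KD 1 to 4 had 2.01, 2.32, 1.69 and 1.44 CPM and the animal labelled 211 had 1.8 CPM, all below the lowest PILO animal (2.62 CPM). Groups without overlap were found in 0.746% of all tested regions. PILO+KD was lower, with a log2 fold change of -0.64 (95% interval -1.18 to -0.09), p = 0.0227 (adjusted p = 1) by edgeR and an exact permutation p of 0.0159. Against CTRL, PILO+KD gave -0.19 (-0.72 to 0.34) in this region. Both results without overlap rest on the same PILO animals and are not independent of each other. When a minimum of 10 tags in every animal replaced the filter, chr12:34980662-34981112 only just passed the cut-off in edgeR with -0.63. The amplicon region then had no value.

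The higher member with the smallest p was chr12:34838440-34839125 in the lower flank. PILO 2 to 5 had 1.63, 2.22, 1.85 and 1.39 CPM, PILO+KD 1 to 4 had 2.88, 3.48, 1.92 and 3.65 CPM, and the animal labelled 211 had 2.23 CPM. All PILO+KD animals except PILO+KD 3 were above the highest PILO animal. This gave a log2 fold change of 0.65 (95% interval 0.05 to 1.25), with p = 0.0323 (adjusted p = 1) by edgeR and p = 0.0397 by the exact permutation test. In PILO versus CTRL the same region gave -0.50 (-1.10 to 0.10). Both values rest on the same 4 PILO animals and are not independent of each other.

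Regions were also compared by how they varied over the 14 animals. The member most like the amplicon region was chr12:34910338-34911063, the sparse region 3021 bp from the start (Pearson's r = 0.71, Spearman's rho = 0.67, log2 CPM). The region over the drawn start, chr12:34907122-34908820, came next (r = 0.69, rho = 0.65), followed by chr12:34863443-34864171 in the lower flank (r = 0.59, rho = 0.41). After the group means were removed, r was 0.75, 0.56 and 0.57. Without the 2 animals farthest from the median of the amplicon region, r was 0.70, 0.63 and 0.34, so the third relation leaned on those animals. Within the 8 libraries of the largest flow cell, r was 0.83, 0.63 and 0.83.

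These 3 were the highest of 31, and r of the amplicon region with the other members ran from -0.41 to 0.71 with a median of 0.07. With all other tested regions the median was 0.00, and 0.333% of them exceeded the highest member. The dense neighbour 205 bp away had r = 0.26. The points share libraries, depth and low tag numbers, and no test was made. Between neighbouring tested regions r had a median of 0.15 and ran from -0.5 to 0.78. Over all 496 pairs its median was 0.03 (-0.8 to 0.86). Pairs of tested regions of the gene had a median of 0.17 (-0.35 to 0.86).

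**Figure D4:**
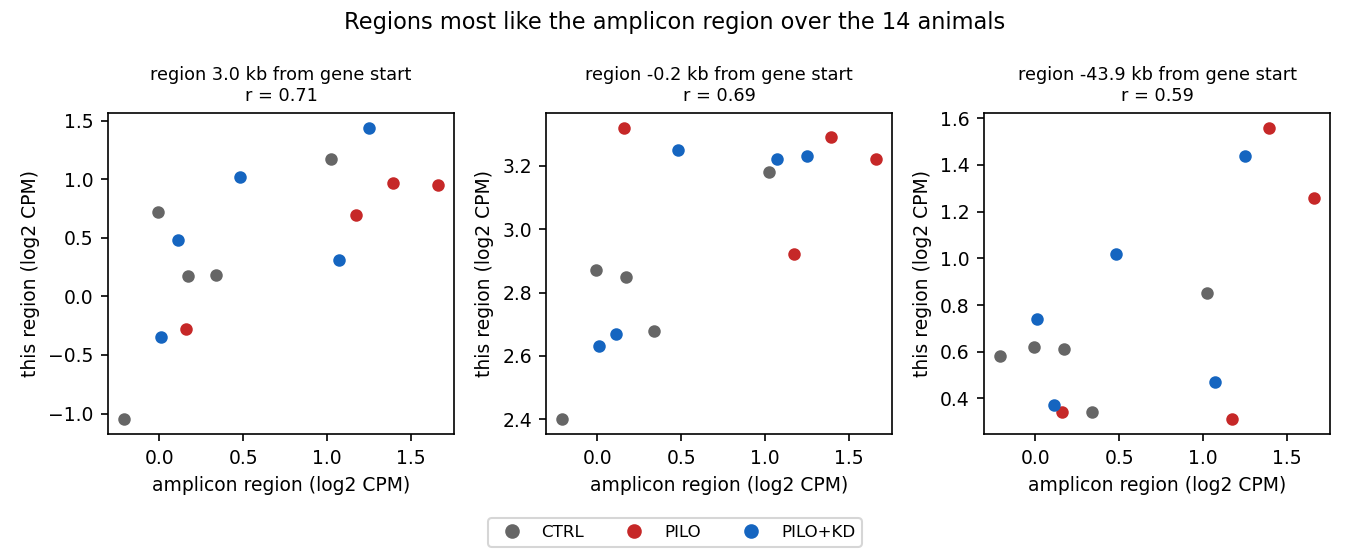
Log2 CPM of the amplicon region (x axis) against each of the 3 members most like it (y axis) in the 14 animals, coloured by group. Over all animals r is 0.71 and 0.69 in the regions 3.0 kb and -0.2 kb from the drawn start and 0.59 in the flank region; in the -0.2 kb region PILO 2, the lowest PILO animal in the amplicon region, is the highest of all 14.

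The 5 regions of the gene below the filter held 0 to 19 tags per animal. All regions with a tag were also fitted with edgeR's quasi-likelihood test. None of the 21 members below the filter then had an unadjusted p below 0.05 in any comparison. The share over all regions below the filter was not computed, so this count has no baseline. By that test the smallest p in PILO versus CTRL was 0.06, at chr12:34911298-34911577 in the sparse stretch of the gene. That region had 2, 3, 1, 4 and 2 tags in CTRL 1 to 5, 0, 11, 9 and 4 tags in PILO 2 to 5, and 1, 4, 9 and 3 tags in PILO+KD 1 to 4 with 3 tags in the animal labelled 211.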

How the data were processed

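DNA (500 ng per rat) was captured with a methyl-CpG binding protein and sequenced for 36 cycles. The authors aligned reads to RN4 with BWA, compared every pair of libraries with MACS 1.4.0 to call regions, merged these with bedtools and counted the tags of each animal with a script of their own, as the submitters' processing notes and the methods describe. The deposited values are these counts, whole numbers with no normalization. A region therefore entered the table when at least 1 pair of animals differed there. Start positions in the table were counted from 0 and are given from 1.

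Regions under 129 summed tags (50th centile) were removed, counts were scaled with TMM and all 14 animals were fitted in R 4.3.3 with the quasi-likelihood test of edgeR 4.0.16, with a mean per group and no covariate. Adjusted p values are Benjamini-Hochberg over all 155092 regions. Calls use the study's threshold of an unadjusted p below 0.01, with the quasi-likelihood test rather than the test the study describes. Standard errors come from the fit's working weights, and a prior count of 2 entered log2 CPM. Exact permutation tests were two-sided, on log2 CPM, over all splits of the animals compared, without adjustment over regions. In simulated PILO versus CTRL counts for 155092 regions, 75.5% of 200 regions given a log2 change of 1 had p below 0.01, beside 0.943% of unchanged regions. The 200 were drawn at random from all tested regions, whose median SE in the data was 0.262. The amplicon region had an SE of 0.40, so that share does not apply to it or to other sparse members.

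Groups came from the labels, and each library is a different rat. Replicate libraries of a group differed by more than counting noise (chi-square divided by its degrees of freedom, 1.63 to 4.86). Intervals on tags cover counting error only. The members, the gene bounds and the rule for named regions were chosen with earlier results of these data known. Regions named are the tested regions of the gene, the neighbours of the amplicon region, the higher and lower member with the smallest p per contrast, the densest and the sparsest member and the 3 members most like the amplicon region. The region chr12:34911298-34911577 and the other untested regions of the gene were named after their values were seen. So were members outside these rules that are named below for an outlying animal or for a call under an alternative setting. Alternatives were scaling (DESeq2 1.42.0 size factors, total tags), filter, DESeq2's Wald test, the animals fitted, flow cell and replicate number. Positions of other genes in RN4 were not used here, so other genes of the CaMKK pathway were not analysed. Other readouts of the study were not analysed here.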

Additional observations from a re-analysis of the deposited data

Results flagged for a closer look

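Of 96 groups of 4 or 5 animals (32 tested members in 3 groups), 6 had an animal whose distance to the nearest other animal exceeded Dixon's 95% limit, and chance gives about 1 in 20. None of the 6 was in the gene. PILO+KD 3 was set apart at the top of its group in both chr12:34853418-34854203 with 3.05 CPM (next highest 1.22) and chr12:34947395-34948213 with 3.05 CPM (next highest 1.88). In the higher flank, CTRL 4 had 8.86 CPM in chr12:34949663-34950435 (next highest 5.86) and CTRL 1 had 6.66 CPM in chr12:34951925-34953565 (next highest 3.73). PILO+KD 4 had 5.31 CPM in chr12:34955412-34956318, below the next lowest value of 9.06. PILO 2 had 2.96 CPM in chr12:34965900-34966352 (next highest 1.56), the region with the smallest p for a higher level in PILO+KD versus CTRL, a contrast in which the PILO animals enter only the estimate of the spread.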

How the results depend on the processing

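No member was called in PILO+KD versus CTRL under any of 24 settings. Lowering the threshold to an unadjusted p of 0.05 gave 2 members in PILO versus CTRL, 2 in PILO+KD versus PILO and 1 for both pilocarpine groups against CTRL. For the other settings below, the share of all tested regions called is not given, so calls of single members there have no baseline. A minimum of 10 tags in every animal left 20 members tested, and 1 was called in PILO+KD versus PILO (chr12:34980662-34981112, -0.63). That member was only just past the cut-off. For both pilocarpine groups against CTRL, 1 member was called with the flow cell as a covariate (chr12:34919412-34920097, -0.74) and 1 within the largest flow cell (chr12:34947395-34948213, 1.03). The latter was also only just past the cut-off. Same-numbered animals are different rats, and the correlation of their deviations ran from -0.286 to 0.283 over the 3 contrasts. Its mean was 0.01 in PILO versus CTRL, -0.008 in PILO+KD versus CTRL and 0.127 in PILO+KD versus PILO. Animals with other numbers gave -0.002, 0.002 and -0.021. With 3 or 4 same-numbered pairs per contrast, these values cannot decide whether the numbers pair animals. With the number as a replicate block, 1 member was called in PILO versus CTRL (chr12:34919412-34920097, -0.89) and 1 in PILO+KD versus PILO (chr12:34870575-34871696, -1.22), the amplicon region gave 1.03 and was not called in PILO versus CTRL, and chr12:34925188-34925902 changed sign in PILO+KD versus PILO (0.10). Leaving out 1 animal at a time gave 0 to 1 called members in PILO versus CTRL and 0 to 1 for both pilocarpine groups, and the log2 fold change of the amplicon region in PILO versus CTRL ran from 0.82 to 1.30. Under the other alternatives it ran from 0.84 to 1.04. In PILO+KD versus PILO, where it was -0.62, it ran from -0.86 to -0.44 with an animal left out. Under the other alternatives there, it ran from -0.64 to -0.34. Signs near 0 turned. In PILO+KD versus CTRL, chr12:34929924-34930837 gave -0.02 with total tags, -0.01 without a filter, -0.07 within the largest flow cell and -0.15 to 0.16 with an animal left out. There, chr12:34934627-34935831 gave -0.01 with total tags and -0.03 to 0.08, and chr12:34937846-34938646 gave -0.20 to 0.11 with an animal left out. In PILO+KD versus PILO with an animal left out, chr12:34910338-34911063 gave -0.27 to 0.24, chr12:34919412-34920097 -0.03 to 0.37, chr12:34925188-34925902 -0.10 to 0.02 and chr12:34931720-34932048 -0.06 to 0.13. With total tags, CPM was computed on the tags of all regions without TMM, and the sums were lower in every group over the gene and both flanks. Over the gene they were 55.3 in CTRL, 53.1 in PILO and 53.4 in PILO+KD. The fall reached the SD of the group only over the gene in PILO and over the higher flank in CTRL (52.9) and PILO (54.9). The cause of the other shifts was not tested. A fit of only the groups compared was not made for both pilocarpine groups together, which uses all groups. Half-widths of the 95% intervals in PILO versus CTRL ran from 0.30 in the dense region chr12:34934627-34935831 to 0.94 in the sparse region chr12:34910338-34911063.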
